A study of Mus musculus with 36 samples.

Results

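S100 proteins are small calcium sensors, and 8 genes of the family (S100a1, S100a4, S100a6, S100a8, S100a9, S100a10, S100a11 and S100a13) were followed through sorted lung AΦ and monocytes. The 8 genes were taken by symbol from a table of 27562 genes, with no threshold on a measured value. RNA-seq covered 36 libraries in 12 groups of 3. C57BL/6J mice carrying CD45.2 were irradiated with the chest shielded, given busulfan and transplanted with bone marrow of CD45.1 mice (B6.SJL-Ptprca Pepcb/BoyJ), and they then inhaled filtered air (FA) or concentrated PM2.5 (fine ambient particles) for 4-weeks or 32-weeks, so every group, FA included, came from irradiated and transplanted chimeras. The mice were males that entered the study as young adults.

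AΦ were sorted as CD64+ CD11c high CD11b low cells and monocytes as Ly6G- MHC II- CD64 low CD11b high cells. TR-AΦ are resident AΦ of the shielded host and carry CD45.2, and BM-AΦ derive from the donor marrow and carry CD45.1. TR-AΦ and CD45.2 monocytes were profiled after 4-weeks and after 32-weeks of FA or PM2.5, and BM-AΦ and CD45.1 monocytes after 32-weeks of FA or PM2.5. The later monocytes carry only numbers in the labels. Number 1 was taken as CD45.1 and number 2 as CD45.2, following the key for AΦ in the supplement, and the stated origin of those monocytes depends on it. Replicates are biological ones from mice drawn at random, per the study's methods, so the spread within a group includes that between mice. The part of sorting or sequencing in that spread is not known. The sources do not say whether a replicate number marks the same mouse in different sorts.

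An S100 protein works mostly as a dimer of small subunits with a pair of EF-hands, the helix-loop-helix motif that binds calcium. Calcium opens a surface through which the dimer grips a target, such as an annexin, a myosin or a growth factor. Some members also leave the cell. S100a8 and S100a9 together form calprotectin, which fills the cytoplasm of neutrophils and inflammatory monocytes and signals through TLR4 and RAGE when released. S100a10 joins annexin A2 in a complex at the plasma membrane, S100a11 binds annexin A1, S100a13 takes part in the release of FGF1 and IL-1α, S100a4 binds non-muscle myosin, S100a6 (calcyclin) binds the ubiquitin ligase adaptor encoded by Cacybp, and S100a1 regulates calcium handling in muscle.

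The 8 genes lie on chromosome 3 of mm10 (coordinates of the deposited table). S100a1 (ENSMUSG00000044080.9, chr3:90511034-90514392, minus strand) and S100a13 (ENSMUSG00000042312.9, chr3:90514435-90524581, plus strand) face away from each other, with 42 bases between the gene models. S100a4 (ENSMUSG00000001020.8, chr3:90584659-90606045), S100a6 (ENSMUSG00000001025.8, chr3:90612882-90614414) and S100a8 (ENSMUSG00000056054.9, chr3:90668978-90670035) follow on the plus strand, and S100a9 (ENSMUSG00000056071.12, chr3:90692632-90695721) lies on the minus strand. S100a11 (ENSMUSG00000027907.4, chr3:93520488-93526287) and S100a10 (ENSMUSG00000041959.14, chr3:93555080-93564643), both on the plus strand, lie 2824766 bases beyond S100a9 and 28792 bases apart. The table gives S100a4 and the overlapping model Gm42674 the same interval, while GENCODE starts S100a4 at 90603771. Gm42674 had at most 0.0034 FPKM.

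Promoter sequences of RefSeq (GRCm38.p6) were matched by symbol for 7 of the 8 members, all but S100a10. The windows of S100a4, S100a6, S100a8 and S100a9 are shown because these neighbours had different levels in the cells sorted, and each runs from 60 bases before the RefSeq start to 10 bases from it, on the strand of the gene, with the letters TATAAA in capitals.
S100a4 (chr3:90603710-90603779, plus strand): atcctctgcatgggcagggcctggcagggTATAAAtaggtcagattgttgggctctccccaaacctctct
S100a6 (chr3:90612834-90612903, plus strand): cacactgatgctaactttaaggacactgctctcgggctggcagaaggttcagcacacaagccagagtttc
S100a8 (chr3:90669011-90669080, plus strand): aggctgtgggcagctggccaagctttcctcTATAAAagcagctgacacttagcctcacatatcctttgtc
S100a9 (chr3:90695712-90695781, minus strand): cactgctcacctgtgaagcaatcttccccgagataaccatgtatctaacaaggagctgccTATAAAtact

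The stretch between the RefSeq starts of S100a1 and S100a13 is shown because both genes, which differ in the size of their change below, are read outwards from it.
S100a1 to S100a13 (chr3:90514331-90514434, plus strand): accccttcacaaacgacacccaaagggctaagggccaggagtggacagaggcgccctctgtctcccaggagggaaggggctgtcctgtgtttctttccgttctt
It is 104 bases long with a GC content of 58.7%. Over promoters of 250 bases before the start and 50 bases from it, TATAAA on either strand was found in 3 of 7 members and in 13.6% of 32851 promoters. It began at position -31 in S100a4, at -30 in S100a8 and at 1 in S100a9, counted from the RefSeq start as position 1. GAGGAA was found in 3 members (S100a4, S100a8 and S100a11) and in 28.3% of promoters. TGANTCA was found in S100a11 alone (7.81% of promoters), TTGCNNAA in S100a9 alone (10.8%) and TTGCGCAA in 0 members (0.183%), and matches of TTGCGCAA are also matches of TTGCNNAA. These matches describe letters and not binding sites.

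Levels are given in FPKM (fragments per kilobase of transcript, scaled to the mapped fragments of the library, as deposited), a scale per length on which genes can be compared. Library sums over all genes ran from 1839580 to 3339020 FPKM (median 2344710), and 15171 to 18244 genes per library were above 0. The sums had a higher range in monocytes (2320650 to 3339020 FPKM) than in AΦ (1839580 to 2580780 FPKM), so the scale was not equal between the cell types. Reads are not counted in FPKM, so the depth behind a value is unknown. Values of 0 can be failed estimates, since Ppia and Rps29, used by every cell, were listed at 0 in 1 and 3 libraries (highest values 1.94 and 17.7 FPKM), while Actb ran from 4205 to 9412 FPKM. Gapdh, also used by every cell, ran from 0.240 to 2.77 FPKM and was at 0 in 0 libraries. Low values above 0 can thus be failed estimates too. The comparisons were made with limma on log2(FPKM + 1), a scale that understates the change of low genes. A gene was called at a Benjamini-Hochberg adjusted p under 0.05 over all genes tested, and all 8 members passed the filter of a mean of at least 1 FPKM in each model. Markers were checked against the labels. Of 14 AΦ markers, 13 were higher in TR-AΦ than in CD45.2 monocytes at 4-weeks and 14 at 32-weeks, and 11 of 11 monocyte markers tested were lower at both times. Dendritic cell markers were found in both sorts. Their list summed on average to 603, 764 and 1105 FPKM in TR-AΦ of 4-weeks, TR-AΦ of 32-weeks and BM-AΦ. In monocytes it summed on average to 508, 1784 and 1641 FPKM in CD45.2 cells of 4-weeks, CD45.2 cells of 32-weeks and CD45.1 cells. In bulk RNA, fewer cells of a type and less RNA per cell cannot be told apart.

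The 8 genes split AΦ from monocytes in opposite directions. S100a1, S100a10, S100a11 and S100a13 were higher in AΦ in each of the 3 comparisons of AΦ with monocytes, by log2 fold changes from 0.55 to 3.33. S100a4 was lower in AΦ in all 3, S100a6 in 2 of 3, and S100a8 and S100a9 passed in 0 of 3. TR-AΦ against CD45.2 monocytes called 6 of 8 members at 4-weeks and 6 of 8 at 32-weeks, where 48.2% and 47.3% of all 13307 genes tested were called, and BM-AΦ against CD45.1 monocytes called 5 of 8, where 50.9% of all genes were called. The share of members called is thus close to or not far above that of all genes, and sizes and directions are described instead. The median log2 fold change of the 8 members was -0.35, 0.72 and 0.96 in these comparisons, beside medians of -0.02, 0 and 0.03 over all genes. Summed over the members the level was 998.5 ± 120 FPKM in TR-AΦ of 4-weeks, 1024 ± 53.6 FPKM in TR-AΦ of 32-weeks and 1298 ± 81.3 FPKM in BM-AΦ (SD, n = 6 each). In monocytes it was 1107 ± 440.3 FPKM in CD45.2 cells of 4-weeks, 891 ± 220.2 FPKM in CD45.2 cells of 32-weeks and 959 ± 223 FPKM in CD45.1 cells (SD, n = 6 each), and the highest library of 4-weeks, at 1955 FPKM, held 40.5% of it in S100a9. The make-up of that sum differed. S100a11 held 36.5% to 43.9% and S100a10 30.2% to 35.4% of it on average in the 3 AΦ populations, while S100a4 held 30.5% to 41.2% and S100a6 17.8% to 20.6% in the 3 monocyte populations.

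**Figure D1:**
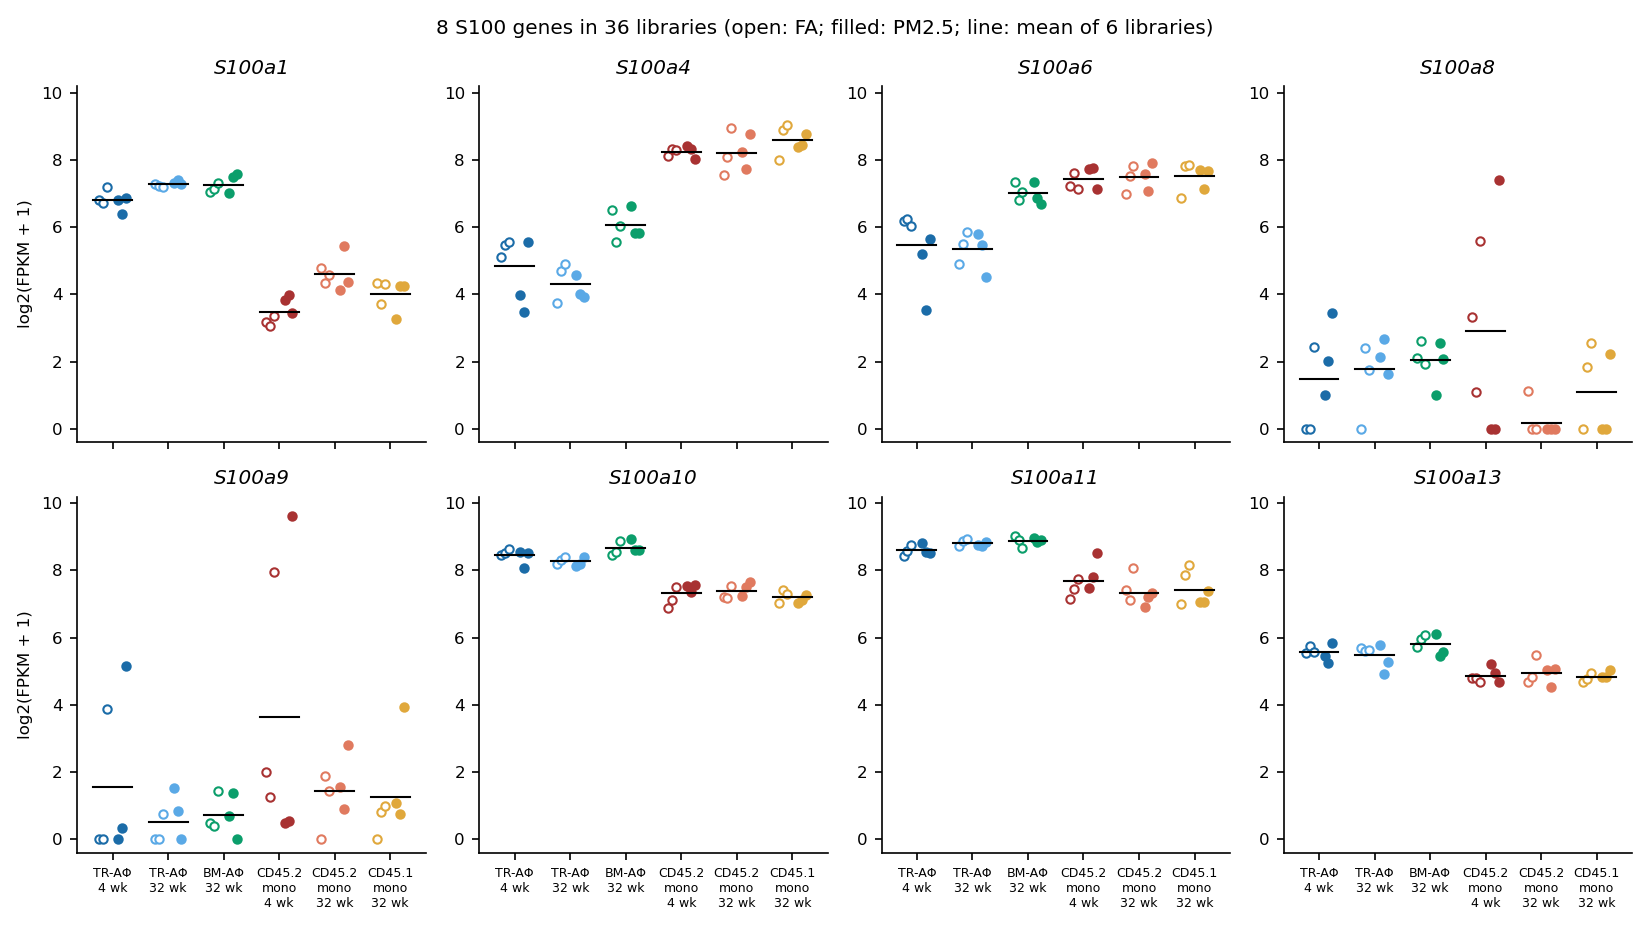
Levels of the 8 genes as log2(FPKM + 1) on the vertical axis for 6 cell populations on the horizontal axis, with 1 point per library (open for FA, filled for PM2.5) and a line at the mean of 6 libraries. S100a1 and S100a10 stand higher in every AΦ library than in any monocyte library, S100a4 stands lower, and S100a8 and S100a9 are scattered from 0 upwards.

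**Figure D2:**
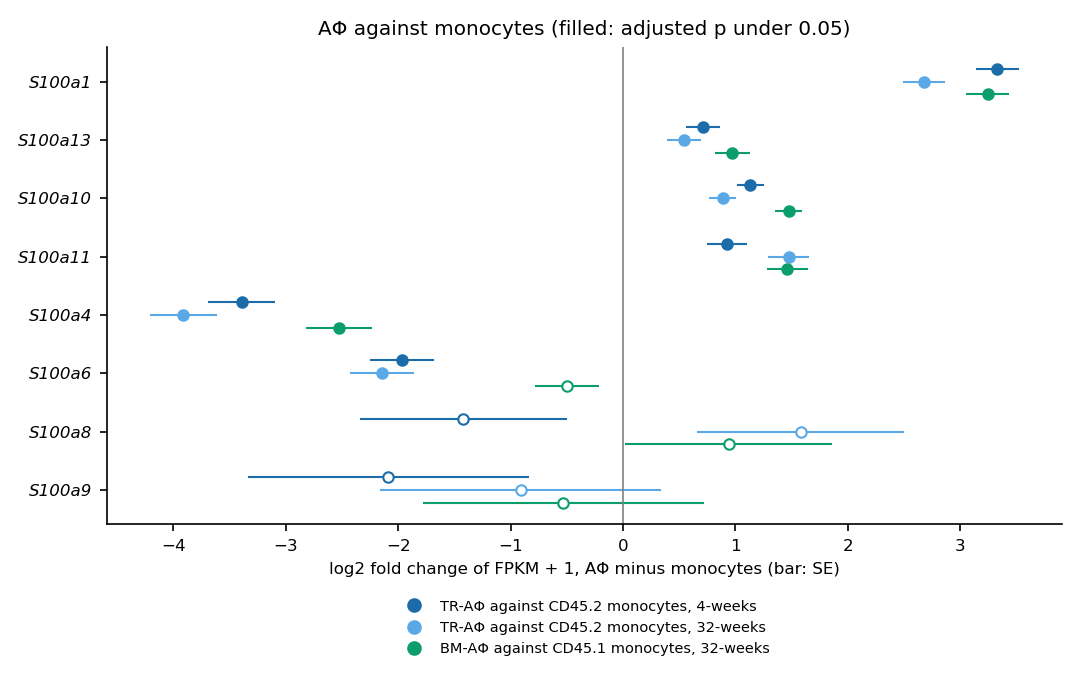
Log2 fold change of FPKM + 1 (horizontal axis, AΦ minus monocytes, bars are SE) of each gene in 3 comparisons, filled where the adjusted p from limma is under 0.05. S100a1 reaches 3.33 and S100a4 reaches -3.91, and S100a6 is open in BM-AΦ against CD45.1 monocytes.

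S100a1 had the largest log2 fold change upwards of the 8 members in each of the 3 comparisons of AΦ with monocytes. TR-AΦ had 112 ± 19.98 FPKM (SD, n = 6, range 83.7 to 146) at 4-weeks and 155 ± 7.65 FPKM (SD, n = 6, range 147 to 167) at 32-weeks, and BM-AΦ had 155 ± 25.8 FPKM (SD, n = 6, range 128 to 190). CD45.2 monocytes of 4-weeks had 10.4 ± 3.01 FPKM (SD, n = 6, range 7.28 to 14.8), those of 32-weeks had 24.5 ± 9.39 FPKM (SD, n = 6, range 16.6 to 42.3), and CD45.1 monocytes had 15.8 ± 4.35 FPKM (SD, n = 6, range 8.63 to 19.3). No monocyte library reached the lowest AΦ library. The log2 fold change was 3.33 ± 0.19 (SE) at 4-weeks, a 10.1-fold difference (adjusted p = 4.72e-14 from limma). It was 2.68 ± 0.19 (SE) at 32-weeks (adjusted p = 4.31e-12 from limma) and 3.24 ± 0.19 (SE) for BM-AΦ against CD45.1 monocytes (adjusted p = 9.19e-14 from limma). In the order of populations the AΦ neighbours overlapped in range, and so did the monocyte neighbours.

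S100a13, the neighbour that shares the short stretch printed above with S100a1, moved the same way by a smaller size. TR-AΦ had 46.7 ± 6.88 FPKM (SD, n = 6) after the shorter and 44.6 ± 9.37 FPKM (SD, n = 6) after the longer time, and BM-AΦ had 56.0 ± 10.499 FPKM (SD, n = 6). Monocytes had 28.1 ± 4.38, 30.3 ± 7.73 and 27.7 ± 2.495 FPKM (SD, n = 6 each) in CD45.2 cells of 4-weeks, CD45.2 cells of 32-weeks and CD45.1 cells. Its log2 fold changes were 0.71 ± 0.15, 0.55 ± 0.15 and 0.97 ± 0.15 (SE, adjusted p 0.000337, 0.00439 and 6.23e-06 from limma), so the groups differed while ranges of neighbouring populations overlapped. Fgf1 and Il1a, which encode the cargo of S100a13 in other cells, were also higher in TR-AΦ at 4-weeks, by 2.37 ± 0.26 and 3.17 ± 0.57 (log2 fold change ± SE, adjusted p 1.56e-08 and 4.32e-05 from limma).

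S100a10 and S100a11, the annexin-binding members, had the highest mean FPKM of the 8 members in all 3 AΦ populations. S100a10 had 354 ± 44.3 FPKM (SD, n = 6) in TR-AΦ of 4-weeks, 309.5 ± 25.5 FPKM (SD, n = 6) in TR-AΦ of 32-weeks and 411 ± 55.9 FPKM (SD, n = 6) in BM-AΦ, against 117 to 200.4 FPKM over the 18 monocyte libraries. The lowest AΦ library, at 268 FPKM, lay above all of these. Its log2 fold changes were 1.13 ± 0.12, 0.89 ± 0.12 and 1.48 ± 0.12 (SE, adjusted p 9.40e-09, 7.07e-07 and 7.61e-11 from limma). S100a11 had 391 ± 39.7, 449.5 ± 26.3 and 473 ± 38.8 FPKM (SD, n = 6 each) in TR-AΦ of 4-weeks, TR-AΦ of 32-weeks and BM-AΦ. In monocytes it had 215 ± 81.0, 167 ± 52.5 and 180 ± 65.3 FPKM (SD, n = 6 each) in CD45.2 cells of 4-weeks, CD45.2 cells of 32-weeks and CD45.1 cells. The log2 fold changes of S100a11 were 0.93 ± 0.18, 1.47 ± 0.18 and 1.46 ± 0.18 (SE, adjusted p 0.000119, 1.39e-07 and 1.59e-07 from limma).

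The level of S100a11 is uncertain because the genome holds near-identical copies of it. The annotated transcript of the processed pseudogene Gm12854 shares 190 of the 462 stretches of 50 bases (41.1%) found in S100a11 transcripts, that of Gm7665 shares 108 (23.4%) and that of Gm29240, which was not analysed here, shares 20 (4.33%). Gm12854 was itself listed at 189 to 382 FPKM in AΦ and 39.0 to 182 FPKM in monocytes and Gm7665 at no more than 6.33 FPKM. The ratio of S100a11 to Gm12854 was 1.75 ± 0.28 (SD, n = 18) over AΦ and 1.97 ± 0.55 (SD, n = 18) over monocyte libraries. The 2 genes summed to 559 to 880.1 FPKM in AΦ and 183 to 551 FPKM in monocytes, so the libraries of the 2 cell types did not overlap on the sum. On S100a11 alone the lowest AΦ library had 346 FPKM and the highest monocyte library 369 FPKM. How the reads were shared between them cannot be told from FPKM. Apart from Gm42674 beside S100a4, no other annotated transcript of a gene outside the 8 shared a stretch of 50 bases with a member.

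Annexins were set beside these 2 genes. Of 8 annexins tested, 5 were higher and 1 lower in TR-AΦ than in monocytes at both times, and 6 were higher and 1 lower in BM-AΦ, where 48.2%, 47.3% and 50.9% of all genes were called. Their median log2 fold change was 0.63, 0.75 and 1.04, beside -0.02, 0 and 0.03 over all genes. Anxa2, which encodes the partner of S100a10, was higher by 1.56 ± 0.12, 1.84 ± 0.12 and 1.78 ± 0.12 (log2 fold change ± SE, adjusted p 4.18e-11, 1.95e-12 and 3.48e-12 from limma), and Anxa4 by 2.42, 1.68 and 2.24. Anxa6 was the annexin that fell, by 1.01, 0.83 and 0.61 on the log2 scale. The ratio of S100a10 to Anxa2 in FPKM was 3.78 ± 0.67 (SD, n = 18; range 2.68 to 5.27) over AΦ libraries and 5.69 ± 0.97 (SD, n = 18; range 4.36 to 8.50) over monocyte libraries. The 2 ranges overlapped. Across the 18 monocyte libraries S100a10 and Anxa2 rose together, with Pearson's r of 0.62 (permutation p = 0.0061, adjusted 0.012 over 6 relations) and Spearman's rho of 0.73 (permutation p = 0.0011, adjusted 0.0064). Without the 2 libraries farthest from the median of Anxa2, r was 0.67. On deviations from the group means, r was 0.75 (permutation p = 0.00044, adjusted 0.00088). Across the 18 AΦ libraries r was 0.21 (permutation p = 0.4, adjusted 0.4) and rho 0.26 (permutation p = 0.29, adjusted 0.35), r was 0.04 without the 2 libraries farthest from the median of Anxa2, and r was -0.08 on deviations from the group means (permutation p = 0.75, adjusted 0.84).

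**Figure D3:**
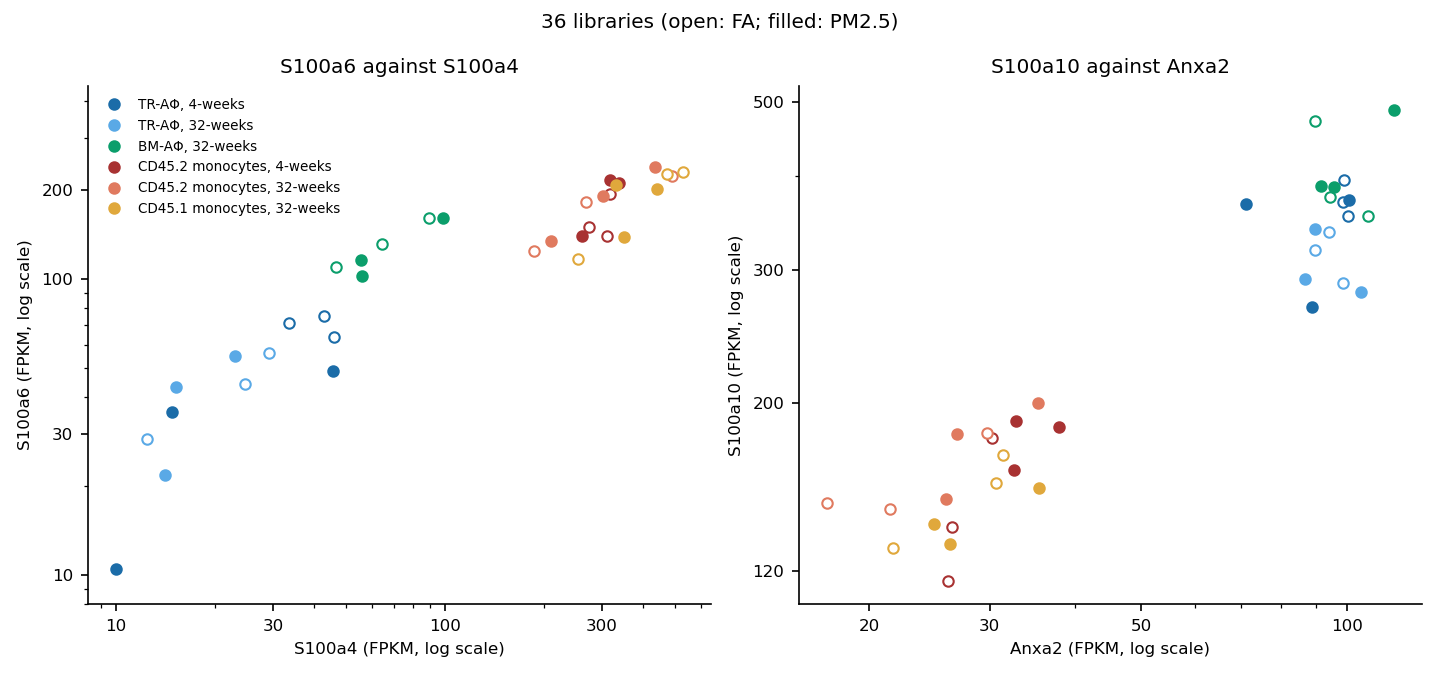
FPKM of S100a6 against S100a4 (left) and of S100a10 against Anxa2 (right) on log axes, with 1 point per library (open for FA, filled for PM2.5) coloured by population. BM-AΦ lie between TR-AΦ and monocytes on S100a4, and AΦ and monocytes form 2 separate groups on S100a10 and Anxa2.

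S100a4, which is best known from motile cells, had the highest mean FPKM of the 8 members in all 3 monocyte populations. CD45.2 monocytes had 304 ± 29.9 FPKM (SD, n = 6, range 261 to 340) at 4-weeks and 316 ± 123 FPKM (SD, n = 6, range 187 to 492) at 32-weeks, and CD45.1 monocytes had 397 ± 102 FPKM (SD, n = 6, range 255 to 529). TR-AΦ of 4-weeks had 33.5, 43.0 and 46.1 FPKM after FA and 14.8, 10.01 and 45.7 FPKM after PM2.5. TR-AΦ of 32-weeks had 12.4, 24.7 and 29.2 FPKM after FA and 23.0, 15.2 and 14.04 FPKM after PM2.5. BM-AΦ had 89.5, 46.5 and 64.5 FPKM after FA and 98.7, 55.5 and 56.0 FPKM after PM2.5. Every BM-AΦ library lay above every TR-AΦ library and below every monocyte library. Against monocytes of the same origin the log2 fold changes were -3.39 ± 0.30 at 4-weeks, -3.91 ± 0.30 at 32-weeks and -2.53 ± 0.30 for BM-AΦ (SE, adjusted p 2.32e-10, 1.79e-11 and 5.79e-08 from limma). By mean level S100a4 ranked between 475 and 571 of 27562 genes in the monocyte populations, 1314 in BM-AΦ and 2286 and 3517 in TR-AΦ of 4-weeks and 32-weeks.

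S100a6 was lower in TR-AΦ than in monocytes, and BM-AΦ stood between them by mean. Monocytes had 175 ± 36.1, 183 ± 46.1 and 187 ± 47.8 FPKM (SD, n = 6 each) in CD45.2 cells of 4-weeks, CD45.2 cells of 32-weeks and CD45.1 cells. TR-AΦ of 4-weeks had 71.1, 75.1 and 64.0 FPKM after FA and 35.6, 10.55 and 48.9 FPKM after PM2.5, and TR-AΦ of 32-weeks had 29.0, 44.2 and 56.6 FPKM after FA and 54.9, 43.2 and 21.8 FPKM after PM2.5. BM-AΦ had 161, 110.2 and 131 FPKM after FA and 161, 116 and 103 FPKM after PM2.5. All TR-AΦ libraries lay below all BM-AΦ and monocyte libraries, and BM-AΦ overlapped with monocytes. TR-AΦ differed from CD45.2 monocytes by -1.97 ± 0.28 at 4-weeks and by -2.14 ± 0.28 at 32-weeks (log2 fold change ± SE, adjusted p 1.58e-06 and 4.39e-07 from limma), while BM-AΦ and CD45.1 monocytes differed by -0.50 ± 0.28 (SE, adjusted p = 0.148 from limma). The interaction of cell type with origin at 32-weeks tests this contrast directly, and S100a6 was the 1 member of 8 called in it, at 1.65 ± 0.40 (log2 difference ± SE, adjusted p = 0.0386 from limma), where 1.08% of all genes were called. S100a4 and S100a10 had 1.38 ± 0.42 and 0.59 ± 0.17 in the same test (SE, adjusted p 0.135 and 0.105 from limma). The call of S100a6 was lost in 16 of 24 models that left out 1 library (adjusted p 0.0302 to 0.0845).

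BM-AΦ and TR-AΦ were also compared directly after 32-weeks, which asks how AΦ of marrow origin differ from resident AΦ in the same exposure. S100a4 was higher in BM-AΦ by 1.76 ± 0.33 and S100a6 by 1.68 ± 0.32 (log2 fold change ± SE, adjusted p 0.0372 and 0.0406 from limma), or 3.38-fold and 3.20-fold on the scale of FPKM + 1. These were 2 of 8 members, where 0.316% of 12665 genes were called. S100a10 was at 0.40 ± 0.12 (SE, adjusted p = 0.246 from limma), S100a13 at 0.33 ± 0.15 (SE, adjusted p = 0.671 from limma), S100a11 at 0.07 and S100a1 at -0.02. Both calls were near the threshold. The call of S100a4 was lost in 10 of 12 models without 1 library (log2 fold change 1.58 to 1.87, adjusted p 0.0344 to 0.128), being kept without FA replicate 1 of BM-AΦ or FA replicate 2 of TR-AΦ, and that of S100a6 in 12 of 12 (1.49 to 1.81, adjusted p 0.0505 to 0.137). With a replicate block within exposure and time, neither was called (adjusted p 0.0904 and 0.0729), although the values of the 6 BM-AΦ and 6 TR-AΦ libraries did not overlap for either gene. They did not overlap for 3 of 8 members (S100a10 too), where 1.37% of all genes had no overlap.

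Markers of other cells were set beside S100a4 and S100a6, since both genes are high in monocytes. The monocyte list summed to 259 to 394 FPKM in BM-AΦ, 112 to 381 FPKM in TR-AΦ of 32-weeks and 1390 to 4938 FPKM over the monocyte libraries. Of 9 monocyte markers tested between BM-AΦ and TR-AΦ, 0 were called, with a median log2 fold change of 0.71 beside 0.0226 over all genes. Ly6c2 had 0.23 to 2.14 FPKM in BM-AΦ, 0 to 1.82 FPKM in TR-AΦ of 32-weeks and 127 to 516 FPKM in monocytes. Ccr2 had 6.199 to 36.8 FPKM in BM-AΦ, 2.09 to 6.01 FPKM in TR-AΦ of 32-weeks and 159 to 938 FPKM in monocytes. Of 14 AΦ markers 1 was lower in BM-AΦ (Marco, at -3.78 on the log2 scale) and of 4 dendritic cell markers 1 was higher (Ccr7, at 2.29). The dendritic cell list summed to 738 to 1531 FPKM in BM-AΦ and 570.03 to 965 FPKM in TR-AΦ of 32-weeks. In CD45.2 monocytes it summed to 56.9 to 1081 FPKM at 4-weeks and 1358 to 2110 FPKM at 32-weeks. In CD45.1 monocytes it summed to 866 to 2525 FPKM. The part of other cells in the difference of S100a4 and S100a6 was not tested.

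S100a8 and S100a9 were low in nearly every library and high in a few. Outside the libraries numbered 2 of 4-weeks, S100a8 ran from 0 to 5.41 FPKM over 16 AΦ libraries (median 2.92, listed at 0 in 3) and from 0 to 9.06 FPKM over 16 monocyte libraries (median 0, listed at 0 in 10). S100a9 ran from 0 to 1.87 FPKM over these AΦ libraries (median 0.286, listed at 0 in 7) and from 0 to 14.4 FPKM over these monocyte libraries (median 1.05, listed at 0 in 2). In the 4 libraries numbered 2 of 4-weeks, S100a8 had 4.41 FPKM in TR-AΦ after FA, 9.96 FPKM in TR-AΦ after PM2.5, 46.7 FPKM in monocytes after FA and 169 FPKM in monocytes after PM2.5. S100a9 had 13.8, 34.6, 248 and 792 FPKM in the same 4 libraries. Both sorts and both exposures were thus touched under 1 number, and S100a9 exceeded S100a8 by 3.13, 3.47, 5.30 and 4.68 times in them. The choice of these 4 libraries was made from their values.

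Of 15 neutrophil markers some were high in the same libraries as S100a8 and S100a9 and others were not. Cxcr2, a chemokine receptor of neutrophils, had 3.83, 4.13, 15.1 and 37.6 FPKM in these 4 libraries (TR-AΦ after FA, TR-AΦ after PM2.5, monocytes after FA, monocytes after PM2.5) and at most 5.13 FPKM in the other AΦ and 1.34 FPKM in the other monocyte libraries. Lcn2 had 0.526, 1.58, 12.3 and 30.03 FPKM (at most 1.68 and 13.9 FPKM elsewhere) and Mmp9 had 1.56, 6.24, 10.8 and 31.5 FPKM (at most 1.41 and 37.5 FPKM elsewhere). Ly6g, against which monocytes were gated, had 2.47 FPKM in monocytes after PM2.5 and was listed at 0 in the other 3, and Elane was listed at 0 in all 4. Ngp had 0, 0, 1.66 and 1.82 FPKM (at most 0.482 and 0.240 FPKM elsewhere). Ltf had its highest value in monocytes after PM2.5 (1.32 FPKM), with 0.115 FPKM in monocytes after FA. Stfa2l1 (2.62 FPKM in monocytes after PM2.5) and Camp (0.235 FPKM in monocytes after FA) were listed at 0 in all other libraries. Wfdc21 had 15.95, 28.9, 0 and 2.12 FPKM, below its highest values elsewhere (32.8 FPKM in AΦ and 4.88 FPKM in monocytes). Mmp8 had 6.71, 9.07, 13.6 and 16.1 FPKM, below its highest values elsewhere (14.4 FPKM in AΦ and 69.9 FPKM in monocytes). Prtn3 had at most 0.431 FPKM against 6.49 FPKM elsewhere, Mpo at most 0.270 FPKM against 1.42 FPKM, and Cebpe at most 0.518 FPKM against 1.70 FPKM. Retnlg had 0, 2.35, 18.1 and 29.4 FPKM, and its highest value, 30.7 FPKM, was in FA replicate 0 of CD45.2 monocytes of 4-weeks, where S100a9 had 3.03 FPKM. The list of 15 neutrophil genes summed to 27.4 to 156 FPKM in CD45.2 monocytes of 4-weeks, 24.2 to 61.4 FPKM in those of 32-weeks, 10.97 to 89.1 FPKM in CD45.1 monocytes and 26.8 to 52.6 FPKM over AΦ. The part of neutrophil RNA in the levels of S100a8 and S100a9 was not tested.

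**Figure D4:**
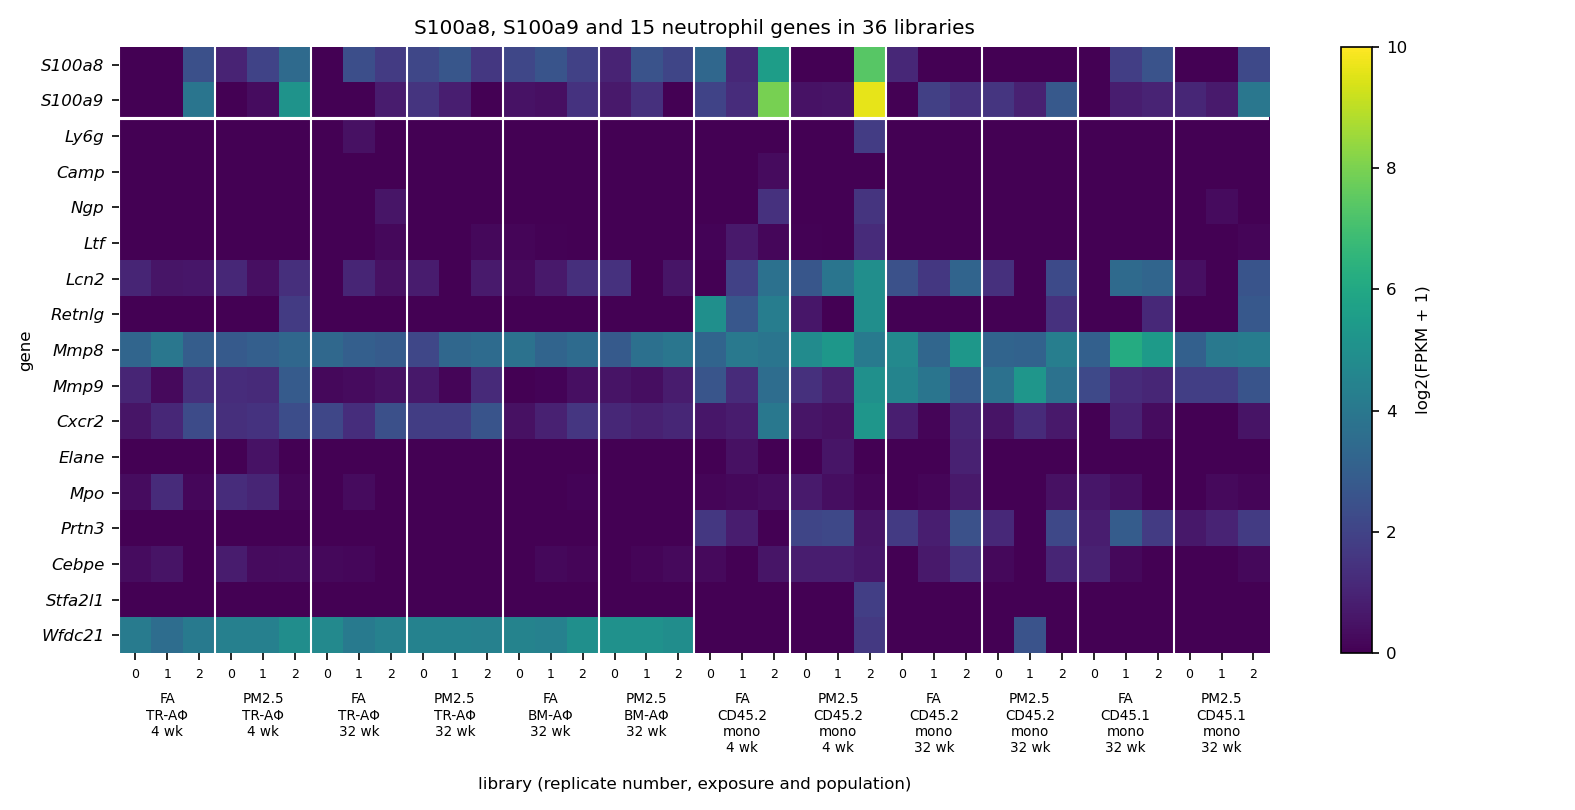
Levels as log2(FPKM + 1) (colour) of S100a8, S100a9 and 15 neutrophil genes (rows) in 36 libraries (columns, by replicate number within exposure and population). The libraries numbered 2 of CD45.2 monocytes of 4-weeks are the brightest for S100a8, S100a9 and Cxcr2, and Wfdc21 is bright in all AΦ libraries.

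Between AΦ and monocytes neither S100a8 nor S100a9 was called, but other models of the same data called each of them. The log2 fold changes were -1.42 ± 0.92 and -2.09 ± 1.25 at 4-weeks (SE, adjusted p 0.213 and 0.175 from limma), 1.58 ± 0.92 and -0.91 ± 1.25 in cells of 32-weeks (SE, adjusted p 0.163 and 0.586 from limma), and 0.94 ± 0.92 and -0.53 ± 1.25 for BM-AΦ (SE, adjusted p 0.416 and 0.760 from limma). With a replicate block within exposure and time, TR-AΦ against CD45.2 monocytes called S100a9 at 4-weeks and S100a8 at 32-weeks. Without the libraries numbered 2, BM-AΦ against CD45.1 monocytes called S100a8. S100a8 and S100a9 correlated across the 18 monocyte libraries with r of 0.86 (permutation p = 0.00057, adjusted 0.0034) and rho of 0.47 (permutation p = 0.053, adjusted 0.079). The value of r fell to 0.31 without replicate 2 of FA and of PM2.5 at 4-weeks, so r on the measured values rests on those libraries. On deviations from the group means, r was 0.91 (permutation p = 1e-05, the smallest that the permutations can give, adjusted 6e-05), rho 0.77 (permutation p = 0.00029), and r 0.79 without the same 2 libraries. The group means were taken before the 2 libraries were left out, so both still set the deviations of the other replicates. The value of 0.79 therefore does not give the relation without them. Across the 18 AΦ libraries r was 0.58 (permutation p = 0.013, adjusted 0.019) and rho 0.64 (permutation p = 0.005, adjusted 0.015), and r was 0.49 without the same replicates of TR-AΦ. On deviations from the group means r was 0.72 in AΦ (permutation p = 0.00064, adjusted 0.00096), and 0.48 without these replicates, again with group means that included them. S100a8 and the summed neutrophil list had r of 0.65 in monocytes (permutation p = 0.003, adjusted 0.0091), 0.47 without the 2 libraries farthest from the median of that sum, and 0.26 in AΦ (permutation p = 0.3, adjusted 0.36). On deviations from the group means these were 0.73 (permutation p = 0.00033, adjusted 0.00088) and 0.05 (permutation p = 0.84, adjusted 0.84). The list holds Wfdc21, which was higher in AΦ than in monocytes by 3.96, 3.99 and 4.82 on the log2 scale. In PM2.5 replicate 2 of TR-AΦ of 4-weeks it held 28.9 of the 52.6 FPKM of the sum. The sum in AΦ therefore does not follow neutrophil RNA alone, and its relation with S100a8 there cannot decide on such RNA.

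PM2.5 was compared with FA in each of the 6 populations, the exposure contrast of the study, and none of the 8 genes passed. Over 48 values (8 genes in 6 populations), 0 had an adjusted p under 0.05 from limma, 2 had an unadjusted p under 0.05, and log2 fold changes ran from -1.36 to 1.34. The share of all genes called was 0.0079% in TR-AΦ of 4-weeks, 0% in TR-AΦ of 32-weeks, 0.0158% in BM-AΦ, 0.00778% in CD45.2 monocytes of 4-weeks, 0% in those of 32-weeks and 0% in CD45.1 monocytes. The 2 values were in TR-AΦ of 4-weeks. S100a6 was at 70.1 ± 5.66 FPKM (SD, n = 3) after FA and 31.7 ± 19.5 FPKM (SD, n = 3) after PM2.5, a log2 fold change of -1.36 ± 0.45 (SE, unadjusted p = 0.00937, adjusted p = 1 from limma), and the libraries did not overlap. S100a4 was at 40.9 ± 6.60 FPKM and 23.5 ± 19.4 FPKM (SD, n = 3 each), a log2 fold change of -1.05 ± 0.46 (SE, unadjusted p = 0.0391, adjusted p = 1 from limma), and the libraries overlapped. Replicate 1 of PM2.5 was the lowest of all 36 libraries for both genes, and without it the log2 fold changes of S100a6 and S100a4 were -0.73 and -0.61. The monocyte list summed to 344, 311 and 535 FPKM after FA and to 239, 212 and 577 FPKM after PM2.5 (replicates 0, 1 and 2). It was lowest where S100a4 and S100a6 were lowest. It was highest in PM2.5 replicate 2, where S100a6 had 48.9 FPKM, below every FA library. Within FA it was highest in replicate 2, where S100a6 was lowest (64.0 FPKM) and S100a4 highest (46.1 FPKM). The dendritic cell list summed to 692, 692 and 633 FPKM after FA and to 556, 276 and 769 FPKM after PM2.5. Ccr2 had 3.67, 6.44 and 31.6 FPKM after FA and 5.02, 4.45 and 34.3 FPKM after PM2.5. The part of monocyte or dendritic cell RNA in these differences was not tested. Of the 48 values, 3 had no overlap between the exposures, S100a6 above (lower after PM2.5) and S100a1 in 2 populations (higher after PM2.5). Over all genes tested, 5.82%, 5.98% and 6.44% had no overlap in either direction in TR-AΦ of 4-weeks, TR-AΦ of 32-weeks and BM-AΦ, and 6.57%, 6.39% and 8.89% in CD45.2 monocytes of 4-weeks, CD45.2 monocytes of 32-weeks and CD45.1 monocytes, so 3 of 48 is near the background. S100a1 did not overlap in TR-AΦ of 32-weeks (149.8 ± 4.93 FPKM after FA and 160.3 ± 6.25 FPKM after PM2.5, SD, n = 3 each) and in CD45.2 monocytes of 4-weeks (8.18 ± 1.01 and 12.7 ± 2.56 FPKM, SD, n = 3 each), with unadjusted p of 0.580 and 0.112 from limma. Whether the effect of PM2.5 changed with time in TR-AΦ or with origin in AΦ was tested as an interaction, and 0 of 8 members passed either test in limma (0 at an unadjusted p under 0.05), where 0.0079% and 0.0158% of genes were called.

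Time of housing and exposure was compared in cells of 1 origin. In TR-AΦ 0 of 8 members passed between 32-weeks and 4-weeks after FA (0 at an unadjusted p under 0.05 in limma) or after PM2.5 (1 at an unadjusted p under 0.05), where 0.782% and 1.05% of genes were called. That 1 value was S100a1 after PM2.5, at 0.64 ± 0.17 (log2 fold change ± SE, adjusted p = 0.0914 from limma), with 111.9, 83.7 and 115 FPKM at 4-weeks and 158, 167 and 156 FPKM at 32-weeks. With a replicate block S100a1 was called (adjusted p = 0.0492 from limma).

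In CD45.2 monocytes S100a1 was higher at 32-weeks by 1.13 ± 0.23 (log2 fold change ± SE, adjusted p = 0.00500 from limma), the 1 member of 8 called where 14.9% of 12856 genes were called. Its values were 7.995, 7.28 and 9.27 FPKM after FA and 13.3, 14.8 and 9.82 FPKM after PM2.5 at 4-weeks, and 26.7, 19.1 and 22.7 FPKM after FA and 16.6, 42.3 and 19.5 FPKM after PM2.5 at 32-weeks. All 6 libraries of 32-weeks lay above all 6 of 4-weeks for this 1 of 8 members, where 7.72% of all genes had no overlap in either direction. AΦ markers moved in both directions. Of 11 AΦ markers tested, 6 were higher (Ear1 by 4.20 and Mrc1 by 3.35) and 3 lower (Fabp4 at -2.19 and Pparg at -1.80), Siglecf went from 0.18 to 1.62 FPKM at 4-weeks to 1.36 to 8.99 FPKM at 32-weeks, and the list summed to 442 to 783 FPKM and 444 to 1741 FPKM. PM2.5 replicate 1 of 32-weeks had the highest S100a1 (42.3 FPKM), Siglecf (8.99 FPKM), Car4 (9.05 FPKM) and sum (1741 FPKM). Without it S100a1 was still higher, by 0.93 ± 0.20 (SE, adjusted p = 0.00924 from limma), and with all libraries numbered 2 left out by 1.16 (adjusted p = 0.0683 from limma), past the threshold no longer. Other lists differed between the times too. The dendritic cell list summed to 56.9 to 1081 FPKM at 4-weeks and 1358 to 2110 FPKM at 32-weeks (H2-Ab1 called at 2.48 on the log2 scale). The monocyte list summed to 3637 to 4938 FPKM and 1390 to 3688 FPKM (Treml4 called at -2.53 and Spn at -2.03). The part of AΦ RNA, or of other changes in the cells sorted, in the level of S100a1 was not tested. CD45.2 and CD45.1 monocytes of 32-weeks differed in 0 of 8 members (1 at an unadjusted p under 0.05, S100a1 at 0.58, adjusted p = 0.406 from limma), where 0.669% of genes were called.

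Whether the difference between TR-AΦ and CD45.2 monocytes changed from 4-weeks to 32-weeks was tested as an interaction of cell type with time. It called 0 of 8 members in limma, where 7.88% of genes were called, and 3 members had an unadjusted p under 0.05. They were S100a1 at -0.65, S100a8 at 3.001 and S100a11 at 0.55 on the log2 scale (adjusted p 0.151, 0.179 and 0.228 from limma).

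Other genes of the S100 pathway were counted from fixed lists. Of 11 other S100 genes 5 were in the table (S100a5, S100a7a, S100a16, S100b and S100g), and 0 reached a mean of 1 FPKM, so 0 were tested. They summed to at most 0.84 FPKM in AΦ and in CD45.2 monocytes of 4-weeks to at most 1.40 FPKM in CD45.1 monocytes and to at most 4.03 FPKM in CD45.2 monocytes of 32-weeks. Of 9 receptor and co-receptor genes tested, 4 were higher and 3 lower in TR-AΦ than in CD45.2 monocytes at 4-weeks, 3 and 2 at 32-weeks, and 3 and 2 in BM-AΦ against CD45.1 monocytes. The shares of all genes called in these comparisons were 48.2%, 47.3% and 50.9%, near those of this list at 32-weeks. Tlr4, a receptor of calprotectin, was higher by log2 fold changes of 1.96, 1.61 and 2.06 (adjusted p 3.50e-08, 1.01e-06 and 1.55e-08 from limma), while its co-receptor gene Cd14 was at -1.62, -2.43 and -1.74 (adjusted p 5.65e-05, 1.39e-07 and 2.25e-05 from limma). Alcam, an adhesion receptor, was at -1.47, -1.20 and -1.003.

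Of 13 intracellular partners tested, 6 were higher and 3 lower at 4-weeks, 8 and 3 at 32-weeks, and 9 and 3 in BM-AΦ, with medians of 0.35, 0.84 and 0.89 on the log2 scale, beside -0.02, 0 and 0.03 over all genes, of which 48.2%, 47.3% and 50.9% were called. Plgrkt, which encodes a plasminogen receptor and partner of S100a10, was higher by 2.09 ± 0.20 in TR-AΦ of 32-weeks and by 2.24 ± 0.20 in BM-AΦ (log2 fold change ± SE, adjusted p 2.27e-09 and 6.35e-10 from limma). Ahnak, a scaffold bound by S100a10 and annexin A2, was at -0.85, -1.27 and -1.01, and Tpm1, which encodes a tropomyosin, at -1.49, -1.21 and -1.33. Of 10 EF-hand genes outside the family, 3 were higher and 3 lower at 4-weeks, 6 and 2 at 32-weeks, and 5 and 2 in BM-AΦ, against the same shares of all genes. Aif1, which encodes the actin-bundling protein IBA1, was at -2.20, -4.71 and -3.72, and the calmodulin gene Calm3 at 0.53, 0.78 and 0.86. Between BM-AΦ and TR-AΦ 0 genes of these 4 lists were called in limma. Between CD45.2 monocytes of 32-weeks and 4-weeks, Aif1 was at 1.43 and Ezr at -1.13, both called.

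Genes with the pattern most like that of each member were listed over the 36 libraries. Pearson's r of log2(FPKM + 1) over 13307 genes is given as a description, and all points share the 2 cell types. S100a1 was closest to Lrp12, Slc7a2 and Ctsd (0.99, 0.98 and 0.98), and S100a4 to Itgb7, Ahr and Plbd1 (0.97, 0.97 and 0.96). S100a10 was closest to Lyrm4, Snx1 and Ccdc80 (0.95 each), and S100a11 to Chp1, Galnt6 and its copy Gm12854 (0.95, 0.95 and 0.94). S100a6 was closest to Sod1, Gm10052 and Rpl7-ps7 (0.87, 0.86 and 0.84) and S100a13 to Mrpl16, Tnfrsf18 and Itgad (0.87, 0.87 and 0.86). S100a9 was closest to Cnppd1, Gzma and Poldip3 (0.84, 0.83 and 0.82), and S100a8 to Cxcr2, Fam134b and Tes (0.75, 0.74 and 0.73). Replicates of a group also differed unequally between members. The median coefficient of variation within groups of 3 was 13.1% for S100a11, 13.6% for S100a10, 15.5% for S100a13, 17.4% for S100a1, 25.9% for S100a6, 33.5% for S100a4, 101% for S100a8 and 127% for S100a9.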

How the data were processed

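RNA-seq of 36 libraries was analysed from a table of FPKM that the authors deposited. They trimmed the reads, aligned them to mm10 with STAR, and computed FPKM with Cufflinks, and the labels also name Cuffdiff. FPKM are scaled for depth and length, so counts and depth are not known. Groups were taken from the sample titles. FPKM were tested as log2(FPKM + 1) in limma 3.58.1 (R 4.3.3) with 1 mean per group and a variance trend, over the genes whose mean reached 1 FPKM. There were 18 comparisons. AΦ against monocytes used 36 libraries, and other comparisons used the 18 libraries of 1 cell type. Correlations had 100000 two-sided permutations over all libraries of a cell type. Deviations from a group mean are tied within the group, so for them such permutations can overstate the evidence. Tables were made in Python 3.11.15 with pandas 2.3.3 and scipy 1.17.1, and the procedure was tested on simulated data. The text names all members, from each list the 2 genes with the largest change past the threshold in each direction, and the 3 genes most like each member, besides marker genes given as levels and genes that share sequence with a member. The members and lists were chosen with earlier results of these data known. Alternatives were a pseudocount of 0.1, no filter, quantile normalization, only the libraries compared, a replicate block, and libraries left out. No protein sequences were used here.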

Additional observations from a re-analysis of the deposited data

Results flagged for a closer look

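The difference between AΦ and monocytes in S100a6 was called unequal in cells of the 2 origins, but the call was not stable. The interaction of cell type with origin was 1.65 ± 0.40 (log2 difference ± SE, BM-AΦ against CD45.1 monocytes minus TR-AΦ against CD45.2 monocytes; adjusted p = 0.0386 from limma), and it was singled out because that difference was itself tested. With all libraries numbered 2 left out it was 1.57 (adjusted p = 0.162 from limma). The call was also lost in 16 of 24 models that left out 1 library (adjusted p 0.0302 to 0.0845 from limma). No other member was called in this test. Among 120 pairs of exposure effects of a member in 2 populations, 0 had every library move one way in one population and the opposite way in the other. Of the 48 member and population values, 2 were higher and 1 lower without overlap. Few pairs could therefore have qualified, and the count says little about whether exposure effects were alike.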

How the results depend on the processing

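Among the member values called, 0 reversed under any alternative run. Of 21 such values, 0 lost the call with a pseudocount of 0.1, quantile normalization, only the libraries compared or a replicate block, 1 lost it with no filter, and 4 lost it with all libraries numbered 2 left out. A replicate block within exposure and time took 2 of 20, and leaving out 1 library took 38 of 264. In the check of deviations, 0 group pairs had every same-number correlation over 0.1. That bar cannot decide whether the replicate numbers pair the libraries. TR-AΦ and monocytes after FA at 4-weeks had 0.016 to 0.058 for the same number and -0.049 to -0.0044 for other numbers. After PM2.5 at 4-weeks these ranges overlapped (-0.016 to 0.077 and -0.147 to 0.093). BM-AΦ against TR-AΦ called 2 members, 1 with no filter, 0 with the replicate block within exposure and time, 0 without the libraries numbered 2, and 0 to 1 without 1 library. The interaction of cell type with origin called 1 member, 2 with quantile normalization or either replicate block (S100a6 and S100a10 under the blocks), 0 without the libraries numbered 2, and 0 to 1 without 1 library. The interaction of cell type with time called 0, and 1 (S100a8) with the block within exposure and time. TR-AΦ against CD45.2 monocytes called 6 members at each time, and 7 with that block. The added member was S100a9 at 4-weeks and S100a8 at 32-weeks. BM-AΦ against CD45.1 monocytes called 5, and 6 (S100a8 added) without the libraries numbered 2. For 32-weeks against 4-weeks, TR-AΦ after PM2.5 called 0, and 1 (S100a1) with the replicate block, and CD45.2 monocytes called 1, and 0 without the libraries numbered 2. The cause was not tested. Over all genes, alternatives other than leaving out 1 library moved the number called from 1049 to between 648 and 1808 for the interaction of cell type with time, from 144 to between 59 and 236 for that with origin, from 40 to between 22 and 85 for BM-AΦ against TR-AΦ, from 99 to between 15 and 197 (FA) and from 133 to between 18 and 381 (PM2.5) for time in TR-AΦ, from 1914 to between 1020 and 2644 for time in CD45.2 monocytes, and from 86 to between 34 and 149 between monocytes of the 2 origins. For PM2.5 against FA and its interactions the number called was 0 to 2, and at most 11 under these alternatives. S100a9 was not tested where it failed the filter without those libraries. FPKM keep no depth, so counting error is unknown.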
